A study of Homo sapiens with 9 samples.

Results

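SRSF, HNRNP, SF3 and SNRP genes code for the proteins that recognise introns and build the splicing machine. They were followed here in OCI-Ly1, an established human line of diffuse large B-cell lymphoma, kept for 48 h with JIB-04, a small-molecule inhibitor of Jumonji-domain lysine demethylases. Members were taken by symbol from the table of gene counts: SRSF or SF3A and SF3B followed by digits only, and any symbol starting with HNRNP or SNRP, with at least 10 counts in at least 3 of the 9 libraries. The name rule matched 63 of 25370 symbols, and 54 passed the count rule: 12 SRSF, 22 HNRNP, 9 SF3 and 11 SNRP genes. Of the 9 left out, 6 had no counts in any library. HNRNPH2, with at most 15 counts and 3 libraries at 10 or more, and SRSF12, with at most 28 counts and 5 such libraries, lay just inside the rule. HNRNPA1P33, with 10 counts in 1 library, was the nearest outside it.

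The 3 groups were vehicle (DMSO), 150 nM JIB-04 and 500 nM JIB-04, each with 3 libraries of ribosome-depleted total RNA from the same line. The labels name no engineered allele, and a single line at a single time limits what the groups can stand for. The labels do not say that replicates came from separate cultures, so p-values may measure technical spread only. The study asked how lysine demethylases of the KDM4 group shape transcription in this lymphoma. Depth ran from 28476845 to 57198613 counts per library. The second DMSO library stood apart on the second principal component (9.32% of the variance), at 42.4 where the others lay between -14.3 and 5.42. It also had the highest summed level of SRSF, HNRNP and SNRP genes; without it 44 members were lower and 1 higher at 500 nM against DMSO, and their median change was -0.42 on the log2 scale. All 7 B-cell markers checked were present, between 59.0 and 608 CPM (normalised read counts scaled to a common library size) in every library, and none of 12 markers of T, myeloid, epithelial or fibroblast cells exceeded 6.06 CPM. The summed level of those 12 markers was 14.4 to 15.6 CPM in DMSO, 11.8 to 13.6 CPM at 150 nM and 7.30 to 9.10 CPM at 500 nM, and its part in the results was not tested. In bulk RNA, fewer cells of a type and less RNA per cell cannot be told apart.

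SR proteins, the products of SRSF genes, bind exons and help to recruit the spliceosome, while hnRNP proteins coat the nascent RNA and often act against exon inclusion. The spliceosome itself is built from small nuclear ribonucleoproteins: SNRPB, SNRPD, SNRPE, SNRPF and SNRPG proteins form the Sm ring that holds most spliceosomal snRNAs, and other SNRP proteins belong to the U1 or U2 particle. The SF3A and SF3B complexes belong to the U2 particle and hold it on the branch point. Many SR and hnRNP genes also control their own mRNA through exons or introns that lead to its decay.

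Promoters of 49 of the 54 members were found in the RefSeq promoter table of build GRCh38.p14. The member with the largest fall in each family and SF3A2, the single member that rose, are shown as the 250 bases before the start of the gene, on the gene's strand. SRSF1 lies at chr17:58007247-58007496 on the minus strand, HNRNPA2B1 at chr7:26200747-26200996 on the minus strand, and SF3A1 at chr22:30356895-30357144 on the minus strand. SF3A2 lies at chr19:2236574-2236823 on the plus strand and SNRPA1 at chr15:101295249-101295498 on the minus strand. Capitals mark the letters CCGGAAG, a core of sites for ETS factors, CCAAT, the CCAAT box, and GCATGCGC, a core of NRF1 sites, each read on either strand.
SRSF1: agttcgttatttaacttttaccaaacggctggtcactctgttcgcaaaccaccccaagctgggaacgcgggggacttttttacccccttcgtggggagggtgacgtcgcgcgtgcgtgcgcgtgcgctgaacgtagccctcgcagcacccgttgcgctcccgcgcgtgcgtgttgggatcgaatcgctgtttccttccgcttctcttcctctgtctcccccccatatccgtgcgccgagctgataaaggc
HNRNPA2B1: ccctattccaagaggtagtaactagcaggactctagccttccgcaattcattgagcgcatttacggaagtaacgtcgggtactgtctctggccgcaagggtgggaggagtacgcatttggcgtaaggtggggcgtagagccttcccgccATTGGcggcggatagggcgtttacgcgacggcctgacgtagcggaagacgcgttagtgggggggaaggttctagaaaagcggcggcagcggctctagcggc
SF3A1: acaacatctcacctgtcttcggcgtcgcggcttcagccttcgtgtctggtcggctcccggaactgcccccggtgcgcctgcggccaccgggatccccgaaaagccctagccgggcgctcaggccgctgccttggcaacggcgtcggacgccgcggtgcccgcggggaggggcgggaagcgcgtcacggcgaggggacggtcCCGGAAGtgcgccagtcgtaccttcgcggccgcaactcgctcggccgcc
SF3A2: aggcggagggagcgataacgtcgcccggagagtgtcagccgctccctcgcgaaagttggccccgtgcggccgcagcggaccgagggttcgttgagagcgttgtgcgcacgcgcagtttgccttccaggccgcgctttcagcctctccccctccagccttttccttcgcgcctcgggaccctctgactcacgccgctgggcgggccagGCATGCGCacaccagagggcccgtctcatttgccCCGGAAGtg
SNRPA1: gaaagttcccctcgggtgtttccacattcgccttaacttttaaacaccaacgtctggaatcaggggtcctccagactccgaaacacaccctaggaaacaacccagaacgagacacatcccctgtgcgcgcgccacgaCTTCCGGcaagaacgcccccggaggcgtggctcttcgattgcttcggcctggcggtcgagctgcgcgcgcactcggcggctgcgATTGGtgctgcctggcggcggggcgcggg
SF3A2, which rose, holds the ETS letters as do SF3A1 and SNRPA1, which fell, and it holds the NRF1 letters as well. The other member window with the NRF1 letters is that of SRSF10, which was lower at 500 nM than in DMSO (log2 fold change -0.36 ± 0.06, SE).

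Over the 49 member promoters, CCGGAAG on either strand was found in 18 (36.7%), against 8.82% of all 27305 promoters of that table. Among the members lower at 500 nM, 15 of 40 (37.5%) held it. The E-box CACGTG, which reads the same on both strands, was present in 7 member promoters (14.3%, against 6.49%). CCAAT or its complement was in 20 (40.8%, against 33%) and TATAAA or its complement in 6 (12.2%, against 11.1%). GCATGCGC or its complement was in 2 (4.08%, against 2.81%). The letters of 3 other elements were in 0 of the 49 windows: TGACGTCA (CRE, 1.77% of all promoters), AAGATGGCG (YY1, 0.641%) and TGATGNAA (CARE, 3.19%), each on both strands. The median GC content of the member windows was 62.4%, against 58% over all promoters. These letters describe the windows and are not binding measurements. The 27305 promoters include those of genes not tested here. The members are abundant (median of 227 CPM over 53 of them, against 21.9 CPM over the genes tested). No share was taken over tested or equally abundant genes, so whether these differences are particular to the members was not tested.

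At 150 nM JIB-04 no gene of these families was called, and few genes of any kind were. At 500 nM most members were lower. By edgeR's quasi-likelihood test, adjusted over all 15089 genes tested, 0 of the 54 members were called at 150 nM against DMSO, where 1.27% of all genes were called at an adjusted p under 0.05, 0.318% of all genes lower. At 500 nM against DMSO, 45 members were lower, where 25.6% of all genes were, and 1 was higher, where 26.3% of all genes were. In either direction 46 members passed, beside 52% of all genes. Scaling by total counts in place of TMM gave 41 members lower and 2 higher, and moved the calls over all genes from 3975 higher and 3868 lower to 5716 higher and 2514 lower. The median log2 fold change at 500 nM was -0.48 over the members and 0.01 over all genes tested. Their summed level was 20026 ± 679 CPM in DMSO, 19253 ± 569 CPM at 150 nM and 14081 ± 170 CPM at 500 nM (SD, n = 3). On the TMM scale these sums equal 2.003% in DMSO and 1.41% at 500 nM, and they are not shares of the raw counts. The TMM factors were 0.958 to 0.971 in DMSO and 1.05 to 1.07 at 500 nM. Abundant genes fell more often than others, and the members are abundant: 43.7% of the genes averaging 50 CPM or more were lower at 500 nM and 21.1% higher. Among members above that level, 41 of 46 (89.1%) were lower and 0 were higher.

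**Figure D1:**
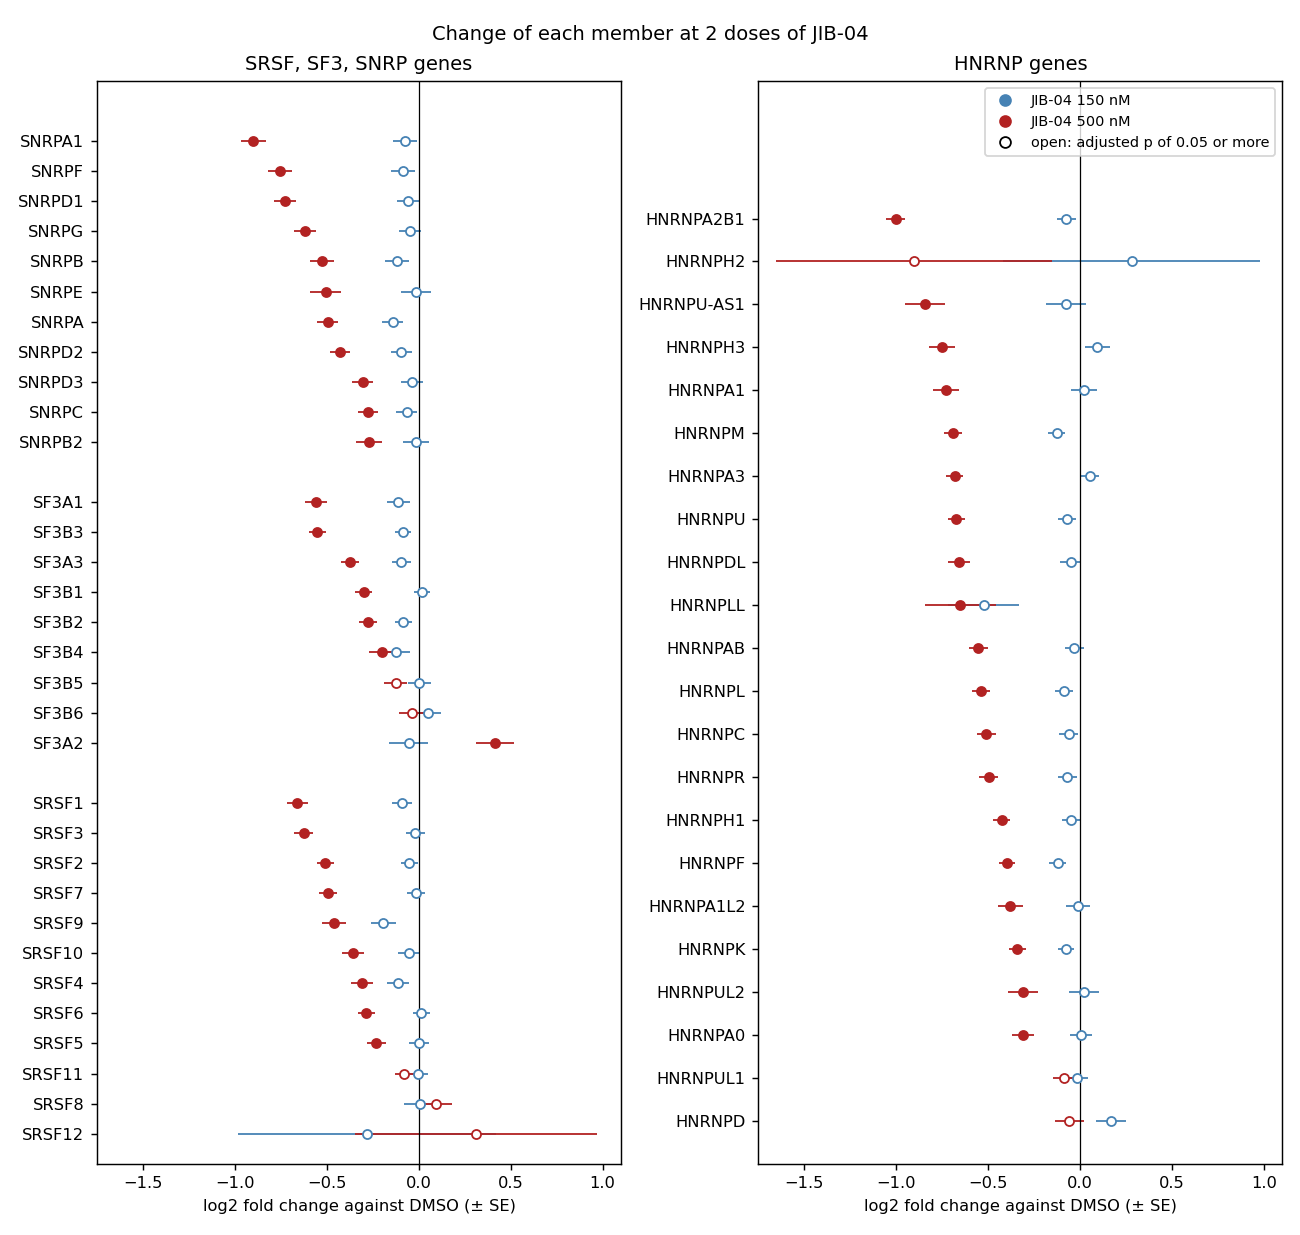
Log2 fold change of each member against DMSO (horizontal axis, with SE) at 150 nM (blue) and 500 nM JIB-04 (red), 1 row per gene, from edgeR's fit to 9 libraries. Filled points have an adjusted p under 0.05: none at 150 nM, and 46 at 500 nM, of which SF3A2 alone lies to the right of 0.

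At the lower dose the families lay close to DMSO by their medians, all on the lower side. The family medians at 150 nM were -0.03 for SRSF, -0.05 for HNRNP, -0.08 for SF3 and -0.06 for SNRP on the log2 scale, beside 0.00 over all genes. The smallest adjusted p was 0.236, for SRSF9, an SR protein, at -0.19 ± 0.07 (SE). Before adjustment, 6 of 54 members (11.1%) had an edgeR p under 0.05, 5 of them lower, beside 10.4% of all genes. DESeq2 and limma-voom each called 0 members as well, with 6 members each at an unadjusted p under 0.05, beside 10.6% and 9.30% of all genes. These shares of members are near those of all genes. In 8 of the 54 members every 150 nM library lay below every DMSO library, a larger share than the 7.32% of all genes. In 0 members did every 150 nM library lie above, where 967 of 15089 genes did. The family sums changed from DMSO to 150 nM by -3.02% for SRSF, -4.19% for HNRNP, -3.01% for SF3 and -5.06% for SNRP. These differences were not tested.

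All 4 families were lower in every 500 nM library than in any other library by their summed level. The SRSF sum was 4023, 4392 and 4303 CPM in the DMSO libraries, 3855, 4183 and 4296 CPM at 150 nM, and 3101, 3073 and 3062 CPM at 500 nM. For the HNRNP genes the sums were 10455, 11277 and 11132 CPM in DMSO, 10216, 10454 and 10818 CPM at 150 nM, and 7472, 7466 and 7223 CPM at 500 nM. From DMSO to 500 nM these sums fell by 27.4% and 32.6%. SF3 genes summed to 2830, 2808 and 2844 CPM in DMSO, 2750, 2679 and 2798 CPM at 150 nM, and 2198, 2194 and 2193 CPM at 500 nM. The SNRP sum was 1962, 2107 and 1946 CPM in DMSO, 1888, 1892 and 1932 CPM at 150 nM, and 1427, 1426 and 1408 CPM at 500 nM. They fell by 22.4% and 29.2%. The DMSO and 150 nM libraries overlapped in the SRSF and HNRNP sums and not in those of SF3 and SNRP. Differences between families were not tested.

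**Figure D2:**
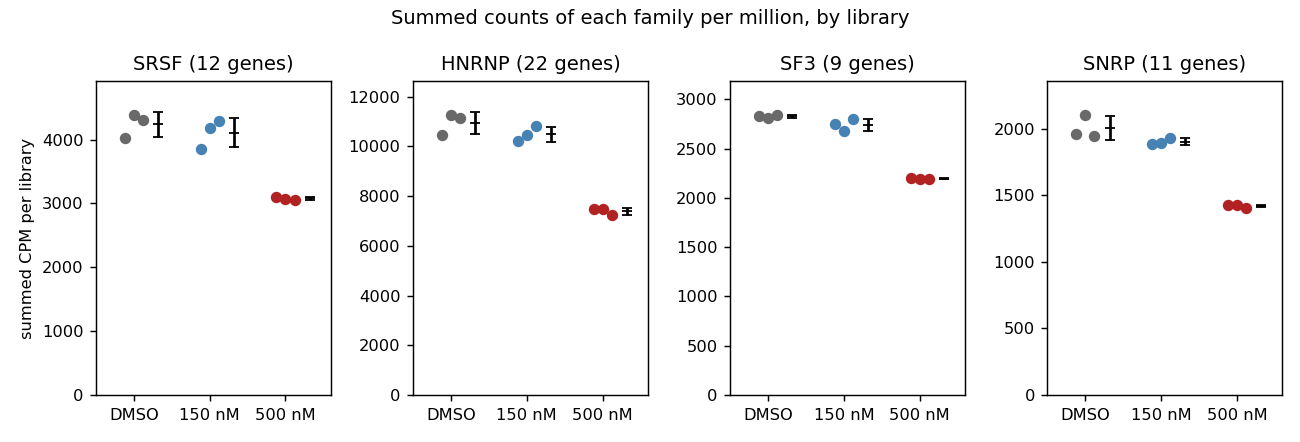
Summed level of each family in CPM (vertical axis, from 0) in the 9 libraries, as points, with the group mean and SD beside them. In each panel the 500 nM libraries lie below all 6 others, for HNRNP at 7223 to 7472 CPM against 10216 to 11277 CPM.

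Of the 12 SRSF genes, 9 were lower at 500 nM than in DMSO and 0 higher, beside 25.6% and 26.3% of all genes. Of all genes averaging 50 CPM or more, 43.7% were lower. The SRSF median log2 fold change was -0.33 and the range -0.66 to 0.31. The upper end is SRSF12, under 1 CPM, and the next highest was SRSF8 at 0.10. Scaled by total counts, the SRSF median was -0.19. The 8 genes SRSF1 to SRSF7 and SRSF9 were all lower, with a median of -0.48, except that SRSF5 lost its call under that scaling (-0.09, adjusted p = 0.132). SRSF1, a founding SR protein that promotes use of nearby splice sites, measured 919, 1057 and 1026 CPM in DMSO, 846, 984 and 991 CPM at 150 nM, and 634, 626 and 639 CPM at 500 nM. The 500 nM libraries lay well below all others, and the other groups overlapped. Its log2 fold change at 500 nM was -0.66 ± 0.06 (SE, adjusted p = 1.2e-10). SRSF3, the smallest SR protein, which also links splicing to mRNA export, measured 662, 751 and 699 CPM in DMSO, 641, 714 and 729 CPM at 150 nM, and 454, 453 and 462 CPM at 500 nM. It showed the same order of groups and fell by 0.63 ± 0.05 on the log2 scale (adjusted p = 7.83e-11).

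SRSF2, an SR protein recurrently mutated in myeloid neoplasms, measured 541, 574 and 555 CPM in DMSO, 519, 539 and 552 CPM at 150 nM, and 399, 384 and 392 CPM at 500 nM. Its log2 fold change was -0.51 ± 0.05 (adjusted p = 4.11e-10), with no overlap between 500 nM and the rest. The gene shares exon sequence with MFSD11 on the opposite strand, whose log2 fold change was 0.54 ± 0.08, and whether reads were counted by strand is not stated in the labels. SRSF9 likewise shares exon sequence with GATC, which was at -0.40 ± 0.06. SRSF8, SRSF11 and SRSF12 were the 3 SRSF genes not called. SRSF11 measured 222, 235 and 238 CPM in DMSO and 219, 221 and 218 CPM at 500 nM, a log2 difference of -0.08 ± 0.05 (adjusted p = 0.209). SRSF8 was at 0.10 ± 0.09 (adjusted p = 0.363), and at 0.24 (adjusted p = 0.0232) when libraries were scaled by total counts. SRSF12 stayed under 1 CPM in every library, too low to read a direction.

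**Figure D3:**
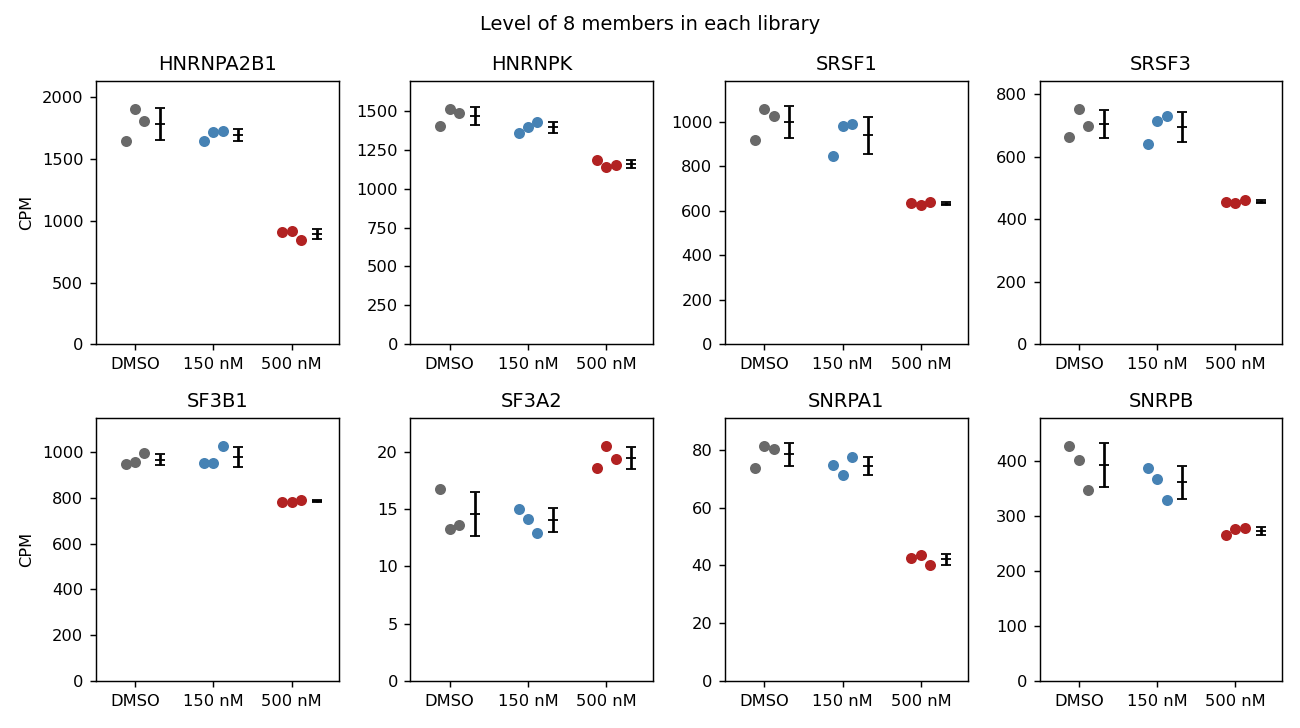
Level in CPM (vertical axis, from 0) of 8 members in the 9 libraries, as points, with the group mean and SD. HNRNPA2B1, HNRNPK, SRSF1, SRSF3, SF3B1, SNRPA1 and SNRPB lie lower in every 500 nM library than in any other, and SF3A2 lies higher.

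The HNRNP genes held the largest fall of all members. Of 22 genes, 19 were lower at 500 nM and 0 higher, beside 25.6% and 26.3% of all genes. The HNRNP median was -0.55, with a range of -1.002 to -0.06. HNRNPA2B1, which codes for the A2 and B1 proteins that bind pre-mRNA and sort RNA, measured 1646, 1905 and 1808 CPM in DMSO, 1644, 1717 and 1729 CPM at 150 nM, and 912, 918 and 845 CPM at 500 nM. Its level fell by 50.1%, a log2 fold change of -1.002 ± 0.05 (adjusted p = 1.24e-15), and against 150 nM the change was -0.93 ± 0.05 (adjusted p = 1.18e-14). The DMSO and 150 nM libraries overlapped, with a log2 difference of -0.07 ± 0.05 (adjusted p = 0.669). HNRNPA2B1 shares exon sequence with CBX3 on the opposite strand, which went from 658 to 492 CPM. As a share of all HNRNP counts, HNRNPA2B1 made up 16.3% ± 0.57 in DMSO and 12.1% ± 0.32 at 500 nM (SD, n = 3).

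HNRNPK, a KH-domain protein that binds C-rich RNA and the most abundant member per length, measured 1403, 1511 and 1489 CPM in DMSO, 1358, 1395 and 1427 CPM at 150 nM, and 1185, 1139 and 1151 CPM at 500 nM. It was lower in every 500 nM library but fell less than most of its family, with a log2 fold change of -0.34 ± 0.04 (adjusted p = 2.57e-07). Its share of HNRNP counts was 13.4% ± 0.02 in DMSO and 15.7% ± 0.38 at 500 nM (SD, n = 3). HNRNPH1, which binds runs of G, measured 1045, 1065 and 1129 CPM in DMSO, 994, 1045 and 1091 CPM at 150 nM, and 790.5, 826 and 795 CPM at 500 nM, a log2 fold change of -0.43 ± 0.05 (adjusted p = 1.49e-08). Its relative HNRNPH3 stood at 83.1, 96.8 and 93.5 CPM in DMSO, 97.8, 91.2 and 102 CPM at 150 nM, and 53.8, 57.9 and 50.6 CPM at 500 nM. HNRNPH3 fell by 0.75 ± 0.07 on the log2 scale (adjusted p = 4.6e-10), and for both genes only the 500 nM libraries stood apart.

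HNRNPU, a scaffold protein that binds both RNA and chromatin, fell by 0.67 ± 0.05 on the log2 scale, from 1310, 1438 and 1430 CPM in DMSO to 888, 879.5 and 854 CPM at 500 nM. The table has a separate entry, HNRNPU-AS1, a symbol of the antisense form that RefSeq gives as another name of HNRNPU. This entry is among the 22 HNRNP genes and the 19 called lower, so the locus may be counted more than once. HNRNPU-AS1 measured 38.4, 35.5 and 45.3 CPM in DMSO, 31.3, 41.0 and 41.2 CPM at 150 nM, and 21.2, 20.2 and 25.1 CPM at 500 nM. The log2 fold change of that entry was -0.84 ± 0.11 (adjusted p = 5.68e-07), and reads of the HNRNPU locus may be split between both entries. The 6 genes HNRNPC, HNRNPK, HNRNPL, HNRNPLL, HNRNPM and HNRNPR were all lower, with a median of -0.52. Within the group of A, B and D proteins 7 of 8 were lower, with a median of -0.61.

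HNRNPD, HNRNPUL1 and HNRNPH2 were the HNRNP genes not called at 500 nM against DMSO. HNRNPD, also known as AUF1, which binds AU-rich elements and promotes mRNA decay, measured 56.8, 62.5 and 68.3 CPM in DMSO, 78.9, 61.2 and 70.6 CPM at 150 nM, and 57.6, 61.4 and 61.1 CPM at 500 nM. All 3 groups overlapped, with a log2 difference of -0.06 ± 0.08 between 500 nM and DMSO (adjusted p = 0.56), though it was lower at 500 than at 150 nM by edgeR (-0.23 ± 0.08, adjusted p = 0.0201). That call was lost without 150 nM library 1 (-0.14, adjusted p = 0.135) or 500 nM library 1 (-0.20, adjusted p = 0.088), under total-count scaling (-0.10, adjusted p = 0.293) and with the GC trend removed (-0.15, adjusted p = 0.204). HNRNPUL1, a relative of HNRNPU, was at -0.09 ± 0.06 (adjusted p = 0.223), and HNRNPH2 stayed under 1 CPM. HNRNPH2 shares exon sequence on the same strand with RPL36A-HNRNPH2, which is listed at 0 counts in every library. HNRNPLL, a regulator of CD45 splicing in lymphocytes, had 3.94, 6.38 and 4.96 CPM in DMSO, 3.67, 3.97 and 2.85 CPM at 150 nM, and 3.10, 3.75 and 2.82 CPM at 500 nM. Its fall of 0.65 ± 0.19 at 500 nM (log2, adjusted p = 0.00539) rested on the second DMSO library: without it the change was -0.47 with an adjusted p of 0.0558.

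The SF3 genes split by subunit. Of 9 genes, 6 were lower at 500 nM, 1 was higher and 2 were not called, beside 25.6% of all genes lower and 26.3% higher. Of all genes averaging 50 CPM or more, 43.7% were lower. The SF3 median was -0.28, or -0.14 under scaling by total counts. Within SF3A, the trimer that joins the U2 particle, SF3A1 measured 113, 117 and 115 CPM in DMSO, 115, 101 and 105 CPM at 150 nM, and 78.3, 74.8 and 82.0 CPM at 500 nM, a log2 fold change of -0.56 ± 0.06 (adjusted p = 1.04e-08). SF3A3 measured 270, 268 and 275 CPM in DMSO, 254, 245 and 262 CPM at 150 nM, and 211, 200.02 and 216 CPM at 500 nM, a log2 fold change of -0.37 ± 0.05 (adjusted p = 3.95e-07). SF3A1 overlapped between DMSO and 150 nM, whereas SF3A3 was lower in every 150 nM library than in DMSO without passing the test (adjusted p = 0.534).

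SF3A2, the third subunit of that trimer, went the other way. It measured 16.8, 13.3 and 13.6 CPM in DMSO, 15.04, 14.2 and 12.9 CPM at 150 nM, and 18.6, 20.5 and 19.4 CPM at 500 nM, so every 500 nM library lay above all others. Beside it, 30.2% of all genes were higher in every 500 nM than in any DMSO library. The log2 fold change was 0.41 ± 0.10 (adjusted p = 0.00133) against DMSO and 0.47 ± 0.10 (adjusted p = 0.000458) against 150 nM. After removal of the trend of each library with GC content it was 0.19 with an adjusted p of 0.0613. PLEKHJ1, which shares exon sequence on the opposite strand, was at 29.6 CPM in DMSO and 28.1 CPM at 500 nM (-0.08 ± 0.10).

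In SF3B, the complex that grips the branch point, 4 of 6 genes were lower and 0 higher. SF3B1, its scaffold and the subunit most often mutated in blood cancers, measured 946, 958 and 994 CPM in DMSO, 953, 954 and 1026 CPM at 150 nM, and 783, 783 and 790 CPM at 500 nM. Its log2 fold change was -0.30 ± 0.05 (adjusted p = 2.77e-06). SF3B3, a scaffold of WD40 repeats, measured 908, 861 and 864 CPM in DMSO, 848, 813 and 823 CPM at 150 nM, and 593, 606 and 599 CPM at 500 nM, and its fall was larger (-0.55 ± 0.04, adjusted p = 3.1e-11). In both genes the 500 nM libraries lay apart, and in SF3B3 the 150 nM libraries also lay just below DMSO. SF3B6, also known as p14, which contacts the branch point region, measured 88.1, 99.4 and 97.1 CPM in DMSO, 87.8, 97.3 and 110 CPM at 150 nM, and 95.6, 91.4 and 90.1 CPM at 500 nM. Its groups overlapped, with a log2 difference of -0.04 ± 0.07 (adjusted p = 0.673). SF3B4, which binds near the branch point, was at -0.20 ± 0.08 (adjusted p = 0.0295), and its call was lost on leaving out DMSO library 1 or 3 or 500 nM library 1 or 3 (adjusted p of 0.0667 to 0.105) and under scaling by total counts (-0.06, adjusted p = 0.542). SF3B5, the smallest subunit, was at -0.13 ± 0.06 (adjusted p = 0.0972).

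Beside 25.6% of all genes, 11 of the 11 SNRP genes were lower at 500 nM, between -0.90 and -0.27, with a median of -0.51. Under scaling by total counts 10 were, and SNRPB2, of the U2 particle, was at -0.13 (adjusted p = 0.106). The 7 Sm ring genes had a median of -0.52 and the 4 genes of U1 or U2 proteins a median of -0.39. SNRPA1, a leucine-rich protein of the U2 particle, measured 73.8, 81.4 and 80.2 CPM in DMSO, 74.8, 71.1 and 77.5 CPM at 150 nM, and 42.6, 43.7 and 39.99 CPM at 500 nM. Its level fell by 46.4%, the largest fall outside the HNRNP genes among called members (-0.90 ± 0.07, adjusted p = 4.92e-12). SNRPF measured 96.3, 111 and 106 CPM in DMSO, 97.2, 96.8 and 101 CPM at 150 nM, and 65.3, 63.4 and 56.8 CPM at 500 nM (-0.76 ± 0.07, adjusted p = 1.43e-10). Both genes kept DMSO and 150 nM libraries together and 500 nM apart.

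SNRPD1, another Sm ring protein, measured 215, 240 and 233 CPM in DMSO, 206, 223 and 233 CPM at 150 nM, and 150, 135 and 132 CPM at 500 nM (-0.73 ± 0.06, adjusted p = 4.48e-11). SNRPD2 measured 277, 296 and 251 CPM in DMSO, 270, 252 and 250 CPM at 150 nM, and 199, 207 and 206 CPM at 500 nM (-0.43 ± 0.06, adjusted p = 2.51e-07). SNRPB, the Sm protein of highest level per length, measured 428, 403 and 348 CPM in DMSO, 388, 367 and 330 CPM at 150 nM, and 265, 276 and 278 CPM at 500 nM (-0.52 ± 0.06, adjusted p = 1.58e-07). These 3 ring genes overlapped between DMSO and 150 nM and lay lower in every 500 nM library. SNRPN, a relative of SNRPB that shares exon sequence on the same strand with SNURF, is listed at 0 counts in all 9 libraries and is no member.

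**Figure D4:**
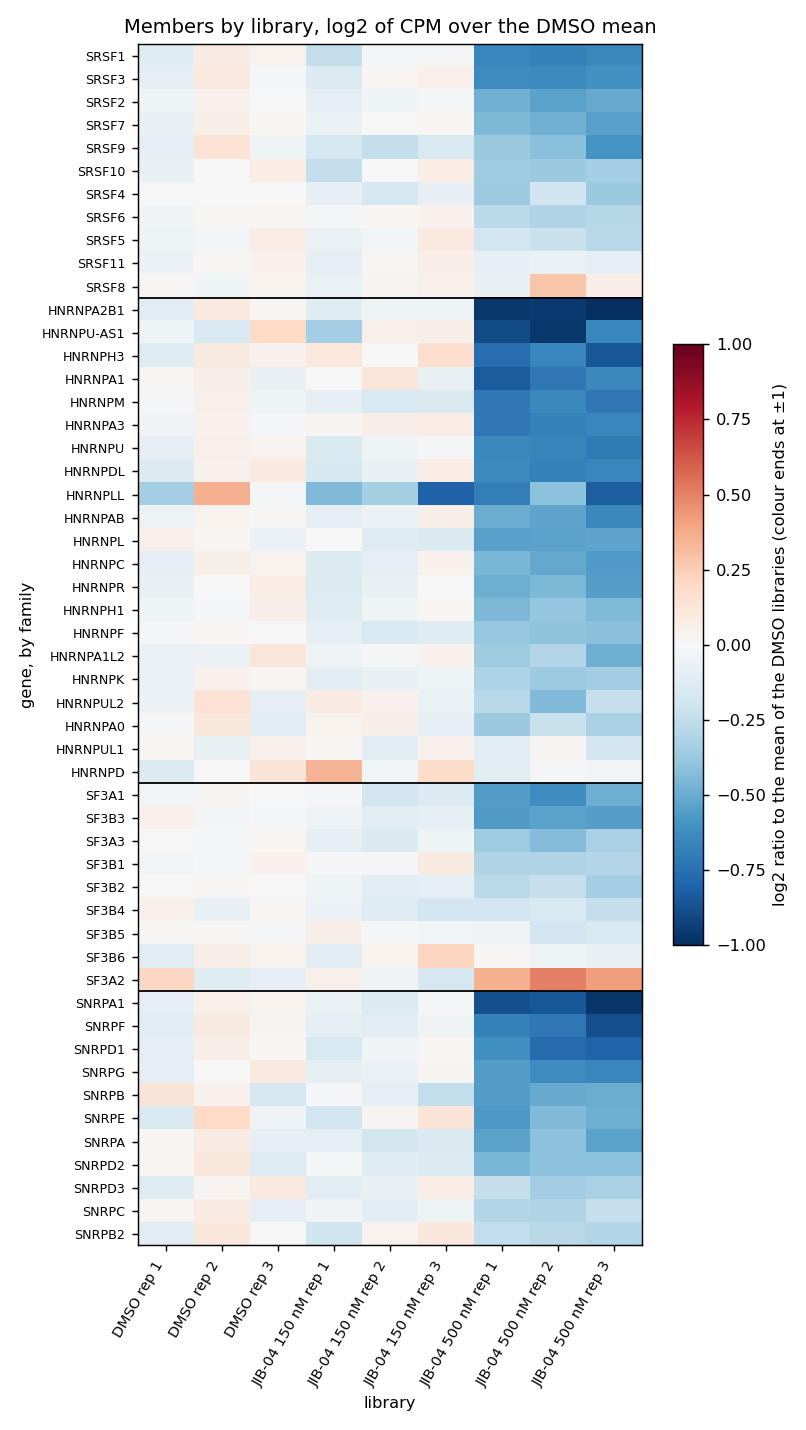
Colour gives the log2 ratio of each member's CPM to its DMSO mean (blue lower, red higher, ending at 1 in either direction), with 1 row per gene by family and 1 column per library. The 500 nM columns are blue in most rows, with HNRNPA2B1 and SNRPA1 among the darkest, and SF3A2 is red in all 3. SRSF12 and HNRNPH2, under 1 CPM, are left out.

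At 500 against 150 nM, 44 members were lower and 1 higher, where 22.8% and 23.7% of all genes were. The lower members were 9 SRSF, 19 HNRNP, 5 SF3 and 11 SNRP genes, and SF3A2 was the member that was higher. In either direction 45 passed, beside 46.5% of all genes. Medians were -0.28 for SRSF, -0.45 for HNRNP, -0.19 for SF3 and -0.41 for SNRP. In 45 members every 500 nM library lay below every 150 nM library, beside 26% of all genes. Against DMSO 47 members had no overlap in that direction, beside 29% of all genes. These comparisons share the 500 nM libraries.

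Per length, the members spanned a wide range of levels. The order by mean reads per kilobase of exon (RPKM, the CPM divided by exon length) over the 9 libraries began with HNRNPK at 440.0, SNRPB at 297, SRSF1 at 268 and HNRNPH1 at 262. HNRNPAB stood at 252 and HNRNPA2B1 at 245. Within SRSF, SRSF2 followed SRSF1 at 169, within SNRP, SNRPD2 followed SNRPB at 164, and SF3 was led by SF3B6 at 124 and SF3B1 at 112. HNRNPA1, which codes for a very abundant nuclear protein, stood at only 14.8 RPKM, and 74 pseudogenes carry its name.

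Counting of repeated sequence bears on these levels. How reads that match several places were handled is not stated in the labels, and SMN1 and SMN2, near-identical genes that every cell uses, had at most 1 count in any library. SNRPG has 20 named pseudogenes, SNRPC 18, HNRNPA3 16, and HNRNPC and SNRPE 9 each. Among the 21 members with no named pseudogene and no exon overlap, 15 (71.4%) were lower at 500 nM, 0 were higher, and the median was -0.285. Over all 54 members 45 (83.3%) were lower, with a median of -0.48, and 25.6% of all genes were lower. The share lower and the median fall were thus smaller in the 21 members, and the reason was not tested. Across 53 members with a known length, the log2 fold change had a Spearman correlation of -0.24 with the level, 0.21 with GC content and -0.13 with length. Over all genes these correlations were -0.21, 0.14 and 0.11. They are across genes, which share libraries and are not replicates.

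Other genes of the pathway went in both directions at 500 nM against DMSO. Beside these lists, 25.6% of all genes were lower and 26.3% higher. Of the genes averaging 50 CPM or more, 43.7% were lower and 21.1% higher. Differences of the lists from those shares were not tested. Of 21 tested U1 and U2 factors under other names, 13 (61.9%) were lower and 2 higher, with a median of -0.20. DHX15, a helicase of spliceosome disassembly, fell by 0.62 ± 0.05 on the log2 scale (adjusted p = 1.63e-11). U2AF1L4, a relative of the splice-site reader U2AF1, rose by 0.52 ± 0.09 (adjusted p = 2.03e-05). Of 24 tri-snRNP proteins 13 (54.2%) were lower and 1 higher, with a median of -0.15. LSM6, of the ring on U6 snRNA, was at -0.44 ± 0.10 and SART3, a recycling factor, at 0.15 ± 0.06 (adjusted p = 0.00036 and 0.0256).

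Of 17 tested factors that assemble snRNPs, 13 (76.5%) were lower and 1 higher, beside 25.6% and 26.3% of all genes. Their median was -0.35. WDR77, partner of the methyltransferase PRMT5 that modifies Sm proteins, fell by 0.70 ± 0.06 (log2, adjusted p = 2.81e-11). CLNS1A, the chaperone that delivers Sm proteins to it, rose by 0.42 ± 0.05 (adjusted p = 8.2e-08). Of 28 factors of the PRP19 complex, helicases and second-step factors, 10 were higher and 4 (14.3%) lower, with a median of 0.04. BUD31 rose by 0.76 ± 0.06 (adjusted p = 3.74e-11) and DDX39A, an RNA export helicase, fell by 0.52 ± 0.06 (adjusted p = 1.89e-08). Of 10 proteins of the minor spliceosome 2 (20%) were lower, beside 25.6% of all genes, and 0 higher. SNRNP35 was at -0.64 ± 0.09 (adjusted p = 8.73e-07).

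Proteins that bind RNA beside the SR and hnRNP families showed both directions. Of 23 SR-related proteins 12 (52.2%) were lower and 2 higher, with a median of -0.15. Beside them, 25.6% of all genes and 43.7% of those averaging 50 CPM or more were lower. The shares higher were 26.3% and 21.1%. TRA2B, which promotes exon inclusion with SR proteins, measured 386, 416 and 420.0 CPM in DMSO and 250, 257 and 249 CPM at 500 nM (-0.69 ± 0.05, adjusted p = 1.54e-11), while RSRP1 rose by 0.57 ± 0.07 (adjusted p = 6.06e-08). Of 21 hnRNP proteins under other symbols 13 (61.9%) were lower and 4 higher, with a median of -0.23. RBMX, also called hnRNP G, was at -0.68 ± 0.05 (adjusted p = 3.68e-12). PCBP4, a poly(C)-binding protein, rose from 1.69, 1.17 and 1.1 CPM in DMSO to 8.81, 11.3 and 7.51 CPM at 500 nM (2.78 ± 0.21 on the log2 scale, adjusted p = 5.81e-12).

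**Figure D5:**
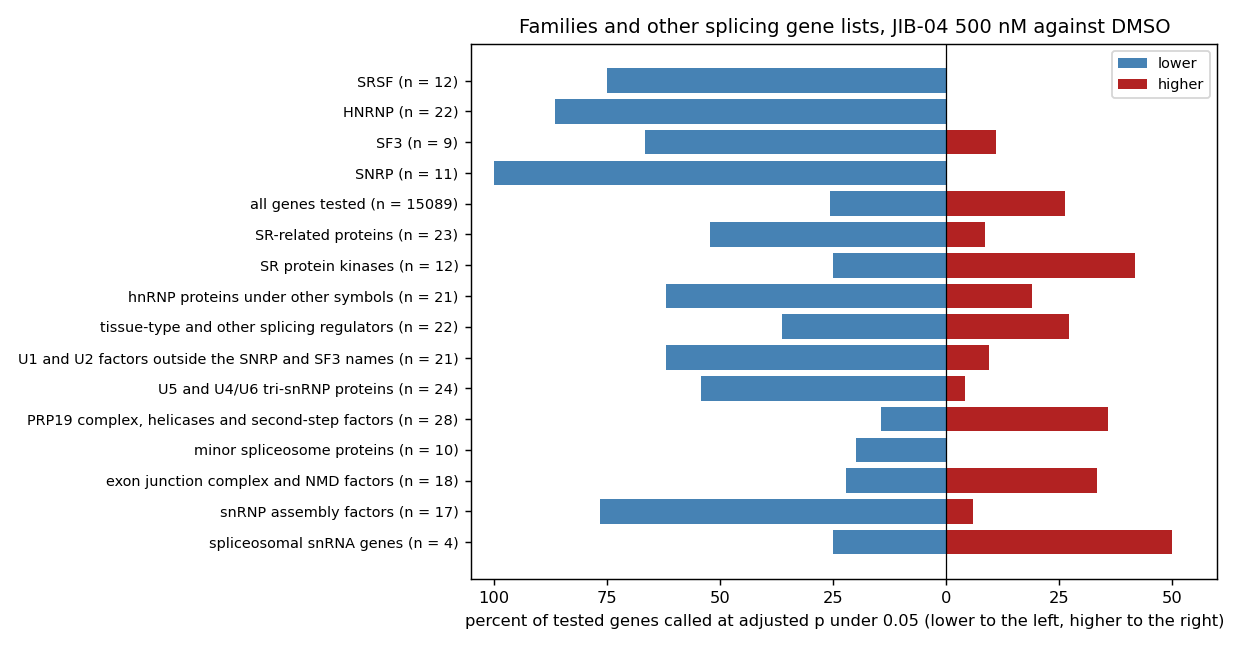
Percent of tested genes called at 500 nM against DMSO (horizontal axis), lower to the left in blue and higher to the right in red, for the 4 families, all genes tested and the other splicing lists. SNRP reaches 100% lower, all genes have 25.6% lower and 26.3% higher, and the PRP19 and helicase list has more genes higher (10) than lower (4).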

How the data were processed

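The authors deposited unnormalised read counts for each gene symbol and library. Named in the submitters' processing notes, with no roles, are featureCounts 1.4.6, Subread, Bowtie2 2.2.6 and TopHat2 2.0.14, and the builds hg19 and mm10. The annotation, the strand setting and the handling of multiply matching reads are not stated there.

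In R 4.3.3, filterByExpr kept genes by a minimum count of 10 and a minimum total of 15, and TMM scaled the libraries in edgeR 4.0.16. All 15089 genes of the 9 libraries entered a robust quasi-likelihood fit with group as the term, and p-values were adjusted by Benjamini-Hochberg over them. A gene was called, and is said to rise or fall, at an adjusted p under 0.05. Adjusted p-values come from this test unless another tool is named. Standard errors are the unshrunk change over the square root of F. CPM are TMM-scaled. RPKM use the exon union of GENCODE 29 coding transcripts (GRCh38, another build than the counts). The scripts were tested on simulated counts. Libraries of a group differed beyond sampling noise (chi-square per degree of freedom 6.59 to 16.1), and all 9 were kept. Reads carry no molecular identifiers here, so depth covers counting error only.

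Members, gene lists and tests were chosen with earlier results of these data known. Named members are, per family, the 2 of highest RPKM and the up to 3 largest called rises and falls at 500 nM with at least 5 CPM. From each list the largest called rise and fall with at least 5 CPM in the higher group were taken. Members not called and other members given with values were named after their values were seen. Promoters of SF3B3, SNRPD1, HNRNPU-AS1, HNRNPA1 and SRSF2 were not matched. The NRF1 letters are a shorter core, taken after a longer form had matched no member promoter. Alternatives were DESeq2 1.42.0, limma-voom (limma 3.58.1), other scalings, filters, a GC correction, a replicate block, fits of 6 libraries and leaving out each library.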

Additional observations from a re-analysis of the deposited data

How the results depend on the processing

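Over 19 alternatives and the 3 comparisons, no called member changed direction in any fit that gave a result for it. Not every fit gave a result for each of the 54 members. Scaling by total counts moved most: 500 nM against DMSO then gave 2 members higher, 1 of them an SRSF gene (SRSF8), and 41 lower, with medians of -0.34 over all members, -0.19 for SRSF, -0.41 for HNRNP, -0.14 for SF3 and -0.37 for SNRP. For 500 against 150 nM it gave 2 higher, 1 of them SRSF, and 37 lower, with medians of -0.24, -0.16, -0.33, -0.071 and -0.28. That scaling moved the median of all genes at 500 nM from 0.01 to 0.15. With the GC trend removed, 0 members, and 0 SF3 genes, were higher at 500 nM against DMSO, and the medians against 150 nM were -0.21 for SRSF and -0.23 for SF3. Leaving out 1 library each gave member medians of -0.49 to -0.42 at 500 nM against DMSO. SF3B4, at -0.20 (adjusted p = 0.0295), lost its call under total counts (adjusted p = 0.542) and when DMSO library 1 or 3, or library 1 or 3 of 500 nM, was left out (0.0667 to 0.105). HNRNPUL2, SRSF5 and SNRPB2 lost theirs under total counts only. For 500 against 150 nM, SRSF4, SRSF5, SRSF9, SF3B2, SNRPB2, SNRPC and HNRNPD lost their calls under total counts, and HNRNPA0 (adjusted p = 0.0557) and HNRNPD with the GC trend removed. SF3B5 was called lower at 500 nM against DMSO with the GC trend removed (adjusted p = 0.0172) and without 500 nM replicate 1 (0.0488). Against 150 nM the same fits called it lower as well (0.00322 and 0.0499). In that comparison HNRNPUL1 was called lower with the GC trend removed (adjusted p = 0.0458), and SF3B6 without 150 nM replicate 1 (0.0310). Deviations of same-numbered libraries correlated weakly (-0.05 to 0.10). Between DMSO and 150 nM these correlations were 0.10, 0.01 and 0.07, against -0.08 to 0.008 for unlike numbers, so pairing there is not settled. A fit with the replicate number as a block called 45 members lower and 1 higher at 500 nM against DMSO, 44 and 1 against 150 nM, and 0 at 150 nM. Over all genes that fit called 308 at 150 nM against DMSO, beside 192 without the block. For SRSF12 and HNRNPH2, under 1 CPM, no direction is read.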

Other observations

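A list of 12 genes held kinases that phosphorylate SR proteins, related kinases and TNPO3, which imports SR proteins and is no kinase. Of these 12, 5 were higher and 3 lower at 500 nM against DMSO, and TNPO3 was not called. Their median was 0.11 on the log2 scale, beside 26.3% of all genes higher and 25.6% lower. The counts of the lists here are descriptions, and their differences from the members were not tested. CLK1, a nuclear kinase of SR proteins, measured 127, 131 and 143 CPM in DMSO, 127, 151 and 151 CPM at 150 nM, and 193, 180 and 185 CPM at 500 nM, and rose by 0.48 ± 0.06 (log2, adjusted p = 3.68e-07). CLK4 rose by 0.48 ± 0.09 (adjusted p = 2.95e-05). SRPK1, a mainly cytoplasmic SR kinase, went from 284, 302 and 293 CPM in DMSO to 217, 220.0 and 221 CPM at 500 nM (-0.42 ± 0.05, adjusted p = 4.27e-08). In these 3 genes the 500 nM libraries lay apart from all others.

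Of 22 tissue-type and other splicing regulators, 6 were higher and 8 lower, with a median of 0.00, beside 26.3% of all genes higher and 25.6% lower. ESRP1, an epithelial splicing regulator, measured 0.32, 0.15 and 0 CPM in DMSO, 3.93, 4.39 and 3.22 CPM at 150 nM, and 52.3, 47.7 and 45.8 CPM at 500 nM. It was the gene of the splicing lists that edgeR called at 150 nM (adjusted p = 4.29e-08). RBFOX2 measured 226, 219 and 231 CPM in DMSO and 89.4, 98.1 and 101 CPM at 500 nM (-1.23 ± 0.05, adjusted p = 6.22e-17). Of 18 exon junction and nonsense-mediated decay factors, 6 were higher and 4 (22.2%) lower, not far from those shares of all genes. SMG9, of the decay pathway, rose by 0.48 ± 0.08 (adjusted p = 1.6e-05) and EIF4A3, core of the exon junction complex, fell by 0.55 ± 0.05 (adjusted p = 4.39e-10). Of 4 tested spliceosomal snRNA genes 2 were higher and 1 lower, with RNU11, the minor spliceosome's U11 snRNA, at 0.72 ± 0.16 (adjusted p = 0.000313) and RNU12, its U12 snRNA, at -0.49 ± 0.19 (adjusted p = 0.0314).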
